A study of Mus musculus with 8 samples.

Results

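Hedgehog signalling genes other than Ihh were examined for called peaks in chromatin immunoprecipitation libraries labelled H3K27me3, the trimethylation of lysine 27 of histone H3. The members were 9 of 21887 protein-coding genes: the ligands Shh and Dhh, Disp2, the receptor-side genes Ptch1, Smo and Hhip, and the transcription factors Gli1, Gli2 and Gli3. Disp2 is labelled ligand release only as a relative of the gene for the ligand-release protein Dispatched. A gene counted as having a peak where a called peak lay over it or within 5 kb of either of its ends. The material was mouse chondrocytes from cartilage, grown in DMEM with serum, with conditional deletion (cKO) of Ezh2, Utx or Jmjd3, or wild type. Each of the 4 genotypes (Ezh2-cKO, Utx-cKO, Jmjd3-cKO and wild type) had 1 ChIP library and 1 input library, 8 in all. For the Cre driver, the age of the animals and any pooling, no information is given in the sources used here. Ezh2 is the Polycomb enzyme that deposits the mark, and Utx (Kdm6a) and Jmjd3 (Kdm6b) are demethylases that remove it.

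In the Hedgehog pathway a secreted ligand, set free from its source cell with the help of dispatched proteins, binds the receptor Patched. Unbound Patched holds the membrane protein Smoothened inactive, and ligand binding lifts that block, so that the Gli factors turn from repressors into activators of transcription. In growth plate cartilage the ligand is mainly Ihh, whereas Shh patterns the early limb and Dhh acts in gonads and nerve sheath. Ptch1, Gli1 and Hhip are themselves target genes of the pathway, and Ptch1 and Hhip bind and restrain the ligand.

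With 1 ChIP library per genotype no difference between genotypes has a replicate check, and no test or p-value is given. Without duplicates, ChIP depth ran from 25655346 fragments (Jmjd3-cKO) to 34786292 fragments (Ezh2-cKO), and input depth from 16599532 (wild type) to 24041619 (Ezh2-cKO). The lists held 33739 peaks in Ezh2-cKO, 49405 in Utx-cKO, 27013 in Jmjd3-cKO and 28057 in wild type. Titles of the Utx-cKO and Jmjd3-cKO libraries start with 1 shared number, those of Ezh2-cKO and of wild type with others, so whatever that number stands for and the genotype cannot be told apart outside the first pair. All 15 housekeeping genes looked at had a peak in every list, and so did all 14 cartilage genes. Of 16 developmental regulators of other lineages, textbook Polycomb targets, 10 had a peak in Ezh2-cKO, 15 in Utx-cKO, 12 in Jmjd3-cKO and 8 in wild type. The share of all protein-coding genes with a peak was 70.6%, 73.5%, 68.9% and 68.7% in the same order. Most of the regulators are shorter than 20 kb, and for such genes the shares were 58.7%, 61.9%, 57.1% and 56.5%. Each peak carries the authors' fold enrichment over its own input, and a gene's rank percentile is the share of genes with a peak in the same list whose highest fold enrichment does not exceed its own. The median rank percentile of the regulators, with 0 for no peak, was 6.31 in Ezh2-cKO, 9.80 in Utx-cKO, 5.98 in Jmjd3-cKO and 0.323 in wild type. For the housekeeping genes it was 63.1, 52.9, 61.8 and 58.6. A profile that follows Polycomb targets would have the opposite order, so a peak is reported only as a call by the authors, not as a sign that the gene is silent. Whether the antibody and sample labels are right was not tested.

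The start-site sequences of 4 members are shown for the contrasts between their peaks. Smo had the highest fold enrichment, Ptch1 the most CpG, Hhip a short weak peak over a CpG-rich start, and Dhh a start that a peak touched in 1 list only. Each sequence is the 250 bases before the RefSeq start in GRCm38.p6, written 5′ to 3′ on the gene's strand, with CpG dinucleotides in capitals. They lie at chr15:98898541-98898790 (minus strand, Dhh), chr13:63565736-63565985 (minus strand, Ptch1), chr6:29735247-29735496 (plus strand, Smo) and chr8:80058009-80058258 (minus strand, Hhip).
Dhh: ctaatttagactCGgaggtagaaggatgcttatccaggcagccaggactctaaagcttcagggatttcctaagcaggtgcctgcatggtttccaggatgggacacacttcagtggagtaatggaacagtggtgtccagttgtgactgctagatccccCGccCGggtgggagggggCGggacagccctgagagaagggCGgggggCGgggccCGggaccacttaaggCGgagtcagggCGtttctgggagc
Ptch1: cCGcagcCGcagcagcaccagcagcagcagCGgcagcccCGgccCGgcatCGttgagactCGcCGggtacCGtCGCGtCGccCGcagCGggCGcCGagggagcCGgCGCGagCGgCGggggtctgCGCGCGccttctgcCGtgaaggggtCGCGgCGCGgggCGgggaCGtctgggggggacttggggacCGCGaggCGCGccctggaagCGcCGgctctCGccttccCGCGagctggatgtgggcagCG
Smo: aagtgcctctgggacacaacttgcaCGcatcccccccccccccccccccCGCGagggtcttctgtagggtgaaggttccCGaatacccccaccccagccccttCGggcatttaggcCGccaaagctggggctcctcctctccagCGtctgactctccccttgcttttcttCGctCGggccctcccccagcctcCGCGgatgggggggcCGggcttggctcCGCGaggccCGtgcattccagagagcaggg
Hhip: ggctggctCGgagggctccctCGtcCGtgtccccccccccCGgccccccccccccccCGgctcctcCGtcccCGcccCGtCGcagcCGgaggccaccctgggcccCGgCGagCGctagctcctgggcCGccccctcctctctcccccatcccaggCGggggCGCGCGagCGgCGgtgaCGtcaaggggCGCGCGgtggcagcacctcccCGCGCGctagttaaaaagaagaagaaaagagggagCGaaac
These stretches hold 9 CpG in Dhh, 41 in Ptch1, 15 in Smo and 28 in Hhip. The RefSeq promoter table matched 6 of the 9 members, namely these 4, Gli2 and Gli3.

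In the window of 250 bases before to 50 after the start, Ptch1 held 47 CpG, Gli3 39, Hhip 30, Gli2 28, Smo 17 and Dhh 12. The median over 21263 such windows of protein-coding genes was 13. A peak touched this window at 6 of the 6 members in Ezh2-cKO and at 5 of 6 in Utx-cKO, Jmjd3-cKO and wild type, Dhh being the exception. Over all windows the shares were 59.4% in Ezh2-cKO, 62.3% in Utx-cKO, 58.6% in Jmjd3-cKO and 57.5% in wild type. They differed with CpG number. Of windows with 30 or more CpG, 98.2%, 98.7% and 98.3% were touched in Ezh2-cKO, Utx-cKO and Jmjd3-cKO, and 97.8% in wild type. Among windows with 10 to 19 CpG, the class of Dhh and Smo, the shares were 82.8%, 86.7%, 82.1% and 80.0% in the same order. Among windows with 0 to 9 CpG they were 17.6%, 21.6%, 15.7% and 15.1%. The CpG number did not order the members by strength: Smo, with 17, had the highest fold enrichment, and Hhip, with 30, the lowest of the 5 members with a peak over the start in all 4 lists.

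Across the lists, 8 of the 9 members had a peak in Ezh2-cKO, 9 in Utx-cKO, 7 in Jmjd3-cKO and 7 in wild type. The background share of all protein-coding genes was 70.6% in Ezh2-cKO, 73.5% in Utx-cKO, 68.9% in Jmjd3-cKO and 68.7% in wild type. Ptch1, Smo, Hhip, Gli1, Gli2, Gli3 and Dhh had a peak in every list. Gene length bears on such counts, and in a split made after the data were seen all 5 members of 20 kb or more (Smo, Ptch1, Hhip, Gli2 and Gli3) had a peak in each list. For genes of that length the background was 84.7% in Ezh2-cKO, 87.2% in Utx-cKO, 82.8% in Jmjd3-cKO and 83.0% in wild type. Of the 4 shorter members, which include both ligands, 3 had a peak in Ezh2-cKO, 4 in Utx-cKO, 2 in Jmjd3-cKO and 2 in wild type, beside backgrounds of 58.7%, 61.9%, 57.1% and 56.5%. With 9 genes these counts are given as a description beside their backgrounds.

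Shh and Disp2 were the members that differed in presence. Counting genes with a peak in the knockout list and none in wild type, Ezh2-cKO added 1 member (3.05% of all genes), Utx-cKO added 2 (5.30%) and Jmjd3-cKO added 0 (2.0%). No member had a peak in wild type and none in a knockout, where the background shares were 1.12% for Ezh2-cKO, 0.507% for Utx-cKO and 1.77% for Jmjd3-cKO. Among the 6854 genes with no wild-type peak, 9.75% had one for Ezh2-cKO, 16.9% for Utx-cKO and 6.38% for Jmjd3-cKO, which is the comparison for 1, 2 and 0 of 2 members. The 3 comparisons share the wild-type list.

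Shh (GRCm38.p6 chromosome 5, 28456840 to 28467101), the ligand that patterns limb and neural tube, had 1 peak in Utx-cKO and none in Ezh2-cKO, Jmjd3-cKO or wild type. The peak lay inside the gene at 28464474 to 28464802, 2299 bp from its nearer end, with a length of 329 bp and a fold enrichment of 2.96. This put Shh at percentile 5.16 among the 16082 genes with a peak in that list, and at percentile 1.45 by longest peak. It dropped out at q of 0.001 or less, and also when each list kept only its 27013 strongest peaks. The presence of Shh therefore rests on a short peak low in the longest of the lists.

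Disp2 (chromosome 2, 118779702 to 118795175), a relative of the gene for the ligand-release protein Dispatched, had 1 peak in Ezh2-cKO, 2 in Utx-cKO, and none in Jmjd3-cKO or wild type. The Ezh2-cKO peak, at 118776027 to 118776643, lay 3059 bp outside Disp2 and inside the neighbouring gene Phgr1, with fold enrichment 2.66. A Utx-cKO peak lay at nearly the same place, from 118775969 to 118776514, with fold enrichment 3.48. The other Utx-cKO peak, from 118779333 to 118779610, ended 92 bp before the end of Disp2 with the lower coordinate and had fold enrichment 3.67 over 278 bp. In Ezh2-cKO the call thus came from a peak within another gene, while in Utx-cKO 1 of the 2 peaks adjoined Disp2 itself. The gene ranked at percentile 3.47 in Ezh2-cKO and 11.6 in Utx-cKO.

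**Figure D1:**
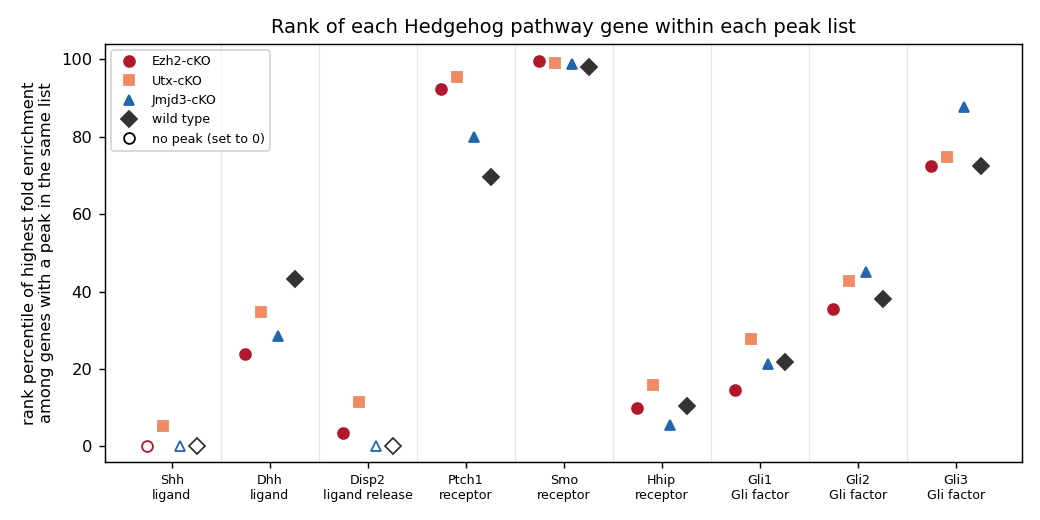
The rank percentile of each gene's highest fold enrichment among all genes with a peak in the same list (y axis) is plotted for the 9 members, grouped by role, with 1 symbol per list and open symbols at 0 where the gene had no peak. Smo stands above 98 in all 4 lists, Ptch1 between 69.5 and 95.5, and Shh and Disp2 at 11.6 or lower.

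Dhh (chromosome 15, 98881615 to 98898562), the ligand of gonad and nerve sheath, had the strongest peaks of the ligand side. Its window held 3 peaks in Ezh2-cKO, 5 in Utx-cKO, 3 in Jmjd3-cKO and 3 in wild type. The highest fold enrichment was 4.91 in Ezh2-cKO, 7.12 in Utx-cKO, 5.97 in Jmjd3-cKO and 6.06 in wild type, at rank percentiles of 23.8, 34.6, 28.5 and 43.4. The gene thus ranked lower in each knockout list than in wild type, with differences of -19.5 percentile points for Ezh2-cKO, -8.73 for Utx-cKO and -14.9 for Jmjd3-cKO. Of all genes with a peak in both lists, 6.86% shifted down that far or farther for Ezh2-cKO, 18.1% for Utx-cKO and 12.2% for Jmjd3-cKO. A peak at the 3′ end of Dhh, in wild type at 98880588 to 98881953, reached from the neighbouring gene Rhebl1 into Dhh in Ezh2-cKO, Utx-cKO and wild type. In Jmjd3-cKO it lay wholly within Rhebl1 and ended 214 bp short of Dhh. It was the strongest of the window in Ezh2-cKO and Jmjd3-cKO. Without peaks nearer to another gene the rank percentiles were 22.7 in Ezh2-cKO, 40.8 in Utx-cKO, 18.8 in Jmjd3-cKO and 48.4 in wild type, in which the knockouts again lay below wild type.

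At the start of Dhh the knockout lists held a peak that wild type lacked. In Ezh2-cKO it spanned 98897985 to 98898605, from 65 bp before to 555 bp after the start, with fold enrichment 3.06. In Utx-cKO it ran from 98897973 to 98898418 (3.02), and in Jmjd3-cKO from 98897957 to 98898308 (2.43), both wholly downstream of the start. Farther inside the gene, Ezh2-cKO had a single peak of 3022 bp and Jmjd3-cKO one of 2204 bp, whereas Utx-cKO had 2 of 1434 and 674 bp at the same place. Utx-cKO also had a peak of 688 bp still farther in, at 98888752 to 98889439 (2.45), where the other lists had none. Wild type had 2 at the first place, of 927 and 514 bp and separated by 960 bp, both within the stretch that the Ezh2-cKO and Jmjd3-cKO peaks spanned or touched. The single peaks had fold enrichments of 4.26 in Ezh2-cKO and 4.41 in Jmjd3-cKO. The separate ones had 7.12 and 4.44 in Utx-cKO, and 6.06 and 3.11 in wild type. Peak length thus differed along with fold enrichment, and its part in the lower ranks of Dhh was not tested.

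Smo (chromosome 6, 29735497 to 29761366), the membrane protein that passes the signal on, carried the highest fold enrichment of the members. Its start peak had fold enrichment 17.8 in Ezh2-cKO, 19.1 in Utx-cKO, 20.2 in Jmjd3-cKO and 14.0 in wild type. That placed the gene 77th of 15456 in Ezh2-cKO, 141st of 16082 in Utx-cKO, 179th of 15082 in Jmjd3-cKO and 290th of 15033 in wild type. All 4 ranks lie in the top 2% of their list (percentiles 99.5, 99.1, 98.8 and 98.1). The peak was 4211, 4396 and 4583 bp long in Ezh2-cKO, Utx-cKO and Jmjd3-cKO, and 4033 bp in wild type. It reached from 650 to 896 bp before the start to between 3313 and 3742 bp after it, so most of it lay inside the transcribed region. The other peaks of Smo, 2 to 4 in the knockouts and 1 in wild type, had fold enrichments of 2.38 to 3.25.

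Ptch1 (chromosome 13, 63508328 to 63573460), the receptor that binds the ligand, had the same start peak in every list, with 6106 bp in Ezh2-cKO, 5991 in Utx-cKO, 5935 in Jmjd3-cKO and 6221 in wild type. Its limits were 2857 to 3213 bp before the start and 3004 to 3144 bp after it, nearly symmetrical. Fold enrichment was 12.3 in Ezh2-cKO, 15.7 in Utx-cKO, 11.7 in Jmjd3-cKO and 7.90 in wild type. These correspond to rank percentiles of 92.5, 95.5, 79.9 and 69.5, so that Ptch1 ranked higher in each knockout list than in wild type while its start peak was slightly shorter there. The shift was 23.0 percentile points in Ezh2-cKO, matched or passed by 6.10% of genes with a peak in both lists. It was 26 points in Utx-cKO (5.57% of genes) and 10.4 in Jmjd3-cKO (20.02%). A further peak covered the upstream end of the annotated gene, in wild type at 63572422 to 63573710, about as long in the knockouts (1320, 1558 and 1531 bp) as in wild type (1289 bp). Its fold enrichment was 6.05 for Ezh2-cKO, 7.45 for Utx-cKO and 6.13 for Jmjd3-cKO, and 3.88 in wild type. Counting that peak, Ptch1 had 4 peaks away from its start in Ezh2-cKO, 6 in Utx-cKO, 5 in Jmjd3-cKO and 3 in wild type. The remaining ones lay inside the gene with fold enrichments of 2.33 to 2.86.

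Hhip (chromosome 8, 79965850 to 80058060), a decoy that binds Hedgehog ligands at the cell surface, had 1 peak per list, always over its start. The peak was 1067 bp long in Ezh2-cKO, 1299 in Utx-cKO, 870 in Jmjd3-cKO and 735 in wild type. Its fold enrichment was 3.24, 4.33, 3.13 and 3.28 in the same order, at rank percentiles of 9.85, 15.9, 5.60 and 10.5. Over a window of 102.2 kb no other peak was called, and at most 1.27% of it (Utx-cKO) and at least 0.719% (wild type) lay under the peak. Within the receptor group Hhip therefore ranked far below Smo and Ptch1 in each of the 4 lists.

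**Figure D2:**
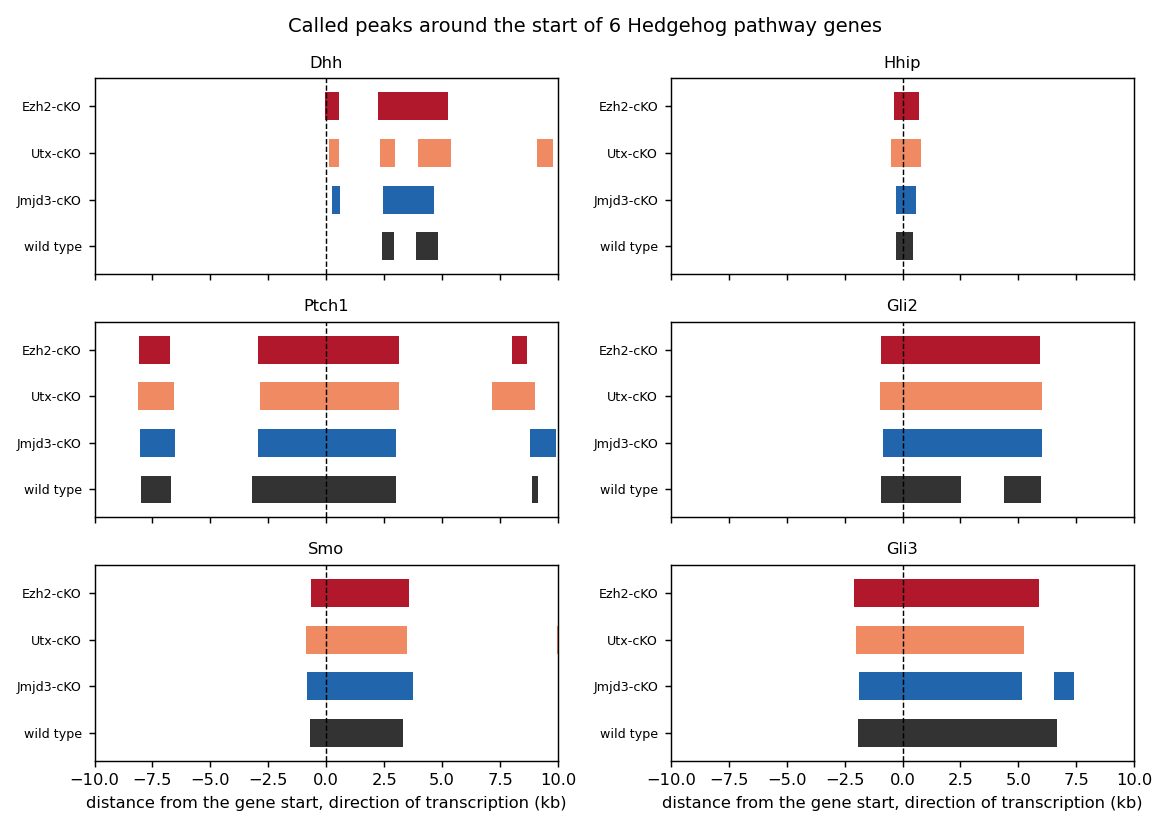
Called peaks (bars) are drawn by distance from the gene start in kb, positive in the direction of transcription, with 1 row per list for the 6 members whose start is known. Each knockout has 1 bar at the start of Gli2 where wild type has 2, and at Gli3 the knockout start bars end nearer to the start than the wild-type bar. In the Jmjd3-cKO row of Gli3 a separate bar follows the start bar.

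Gli1 (chromosome 10, 127329882 to 127341579), the activator and classic target gene of the pathway, had the lowest fold enrichments among the Gli factors. Its window held 2 peaks in each knockout and 3 in wild type. One of them, in wild type at 127326115 to 127327012, lay inside the neighbouring gene Arhgap9. It was the strongest in Utx-cKO (fold enrichment 6.15), Jmjd3-cKO (5.13) and wild type (4.41), though not in Ezh2-cKO (3.53). The peak at Gli1 itself had fold enrichment 3.78 for Ezh2-cKO, 4.27 for Utx-cKO and 4.31 for Jmjd3-cKO, and wild type had 2 peaks of 2.64 and 3.82 there. Counting peaks over the gene alone, the rank percentile was 15.2 in Ezh2-cKO, 16.1 in Utx-cKO, 15.7 in Jmjd3-cKO and 16.5 in wild type, which are nearly equal. The knockout peak measured 2964, 3843 and 2941 bp and reached from inside the gene past its upper end. The wild-type peaks at Gli1 itself measured 899 and 446 bp with 1498 bp between them.

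Gli2 (chromosome 1, 118834061 to 119054405), the main activator of the pathway, showed the same arrangement on a larger scale. A start peak of 6858 bp in Ezh2-cKO, 6990 bp in Utx-cKO and 6859 bp in Jmjd3-cKO spanned the place of 2 wild-type peaks of 3471 and 1587 bp, which were 1834 bp apart. The outer limits were close to each other in all lists, with 941, 969, 859 and 927 bp before the start in Ezh2-cKO, Utx-cKO, Jmjd3-cKO and wild type. On the inner side the knockout peaks ended 5916, 6020 and 5999 bp after the start, and the inner wild-type peak ended at 5964 bp. What differed was thus the stretch between the wild-type peaks and not the ends of the domain. Fold enrichment of the start peak was 6.09, 8.04, 7.67 and 5.71, at rank percentiles of 35.4, 42.6, 45.1 and 38.2.

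Spanning of this kind occurred at 3 genes in Ezh2-cKO (Dhh, Gli1 and Gli2), 2 in Utx-cKO (Gli1 and Gli2) and 3 in Jmjd3-cKO (Dhh, Gli1 and Gli2). Of the members' knockout peaks that touched a wild-type peak, that is 3 of 16, 2 of 19 and 3 of 20. Over all such peaks the share that touched 2 or more wild-type peaks was 1.76% for Ezh2-cKO, 3.69% for Utx-cKO and 1.69% for Jmjd3-cKO. Counting peaks of 2 kb or longer alone, as all the spanning peaks of the members were, the members had 3 of 6, 2 of 8 and 3 of 7, beside 5.04%, 8.60% and 5.02% over the lists. The converse, a wild-type peak over 2 knockout peaks, was seen at 1 member, Gli3 in Jmjd3-cKO, beside shares of 0.936% for Ezh2-cKO, 0.555% for Utx-cKO and 0.885% for Jmjd3-cKO. These genes were singled out after the values were seen. At Gli1 and Gli2 the same wild-type peaks enter each comparison. ChIP depth differed between the lists, with 34786292 fragments for Ezh2-cKO, 34359111 for Utx-cKO and 25655346 for Jmjd3-cKO against 29222251 in wild type. The inputs, to which the larger ChIP libraries were scaled down, had 24041619, 23983492, 16645811 and 16599532 fragments in the same order. The part of depth in the spanning was not tested.

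Inside Gli2, more than 10 kb past the start and so clear of the start peaks, the lists differed in number of peaks. There were 5 in Ezh2-cKO, 19 in Utx-cKO, 7 in Jmjd3-cKO and 5 in wild type. They covered 4334, 17206 and 6963 bp in the knockouts and 2786 bp in wild type. In Utx-cKO their fold enrichments ran from 2.54 to 4.53, below the 8.04 of the start peak, and the farthest was centred 202772 bp into the gene. When each list kept only its 27013 strongest peaks, Gli2 held 4 peaks in Ezh2-cKO, 12 in Utx-cKO, 8 in Jmjd3-cKO and 7 in wild type, the start peak included. With lists of equal length Utx-cKO still held the most peaks in Gli2, though fewer.

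Gli3 (chromosome 13, 15463723 to 15730026), the main repressor of the pathway, had the longest start peak of the members, and the longest was in wild type. It measured 7996 bp for Ezh2-cKO, 7228 for Utx-cKO and 7020 for Jmjd3-cKO, against 8607 bp in wild type. The upstream limits were alike, at 2110, 1992, 1876 and 1924 bp before the start. The downstream limit lay 5885, 5235 and 5143 bp after the start in the knockouts and 6682 bp after it in wild type. In Jmjd3-cKO a separate peak of 858 bp followed, from 6551 to 7408 bp after the start. With peaks within 3 kb merged, the longest peak was 7996 bp in Ezh2-cKO, 7228 in Utx-cKO, 9285 in Jmjd3-cKO and 8607 in wild type. Wild type was then no longer the longest. By fold enrichment the order was different: 9.33 in Ezh2-cKO, 11.4 in Utx-cKO, 13.4 in Jmjd3-cKO and 8.15 in wild type, at rank percentiles of 72.6, 74.9, 87.6 and 72.5. The start peak also covered an end of the long noncoding gene Gm6556. Beyond the start, Gli3 had 5, 4 and 7 peaks in the knockouts and 6 in wild type, all with fold enrichments of 2.37 to 3.19, in a gene of 266.3 kb.

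**Figure D3:**
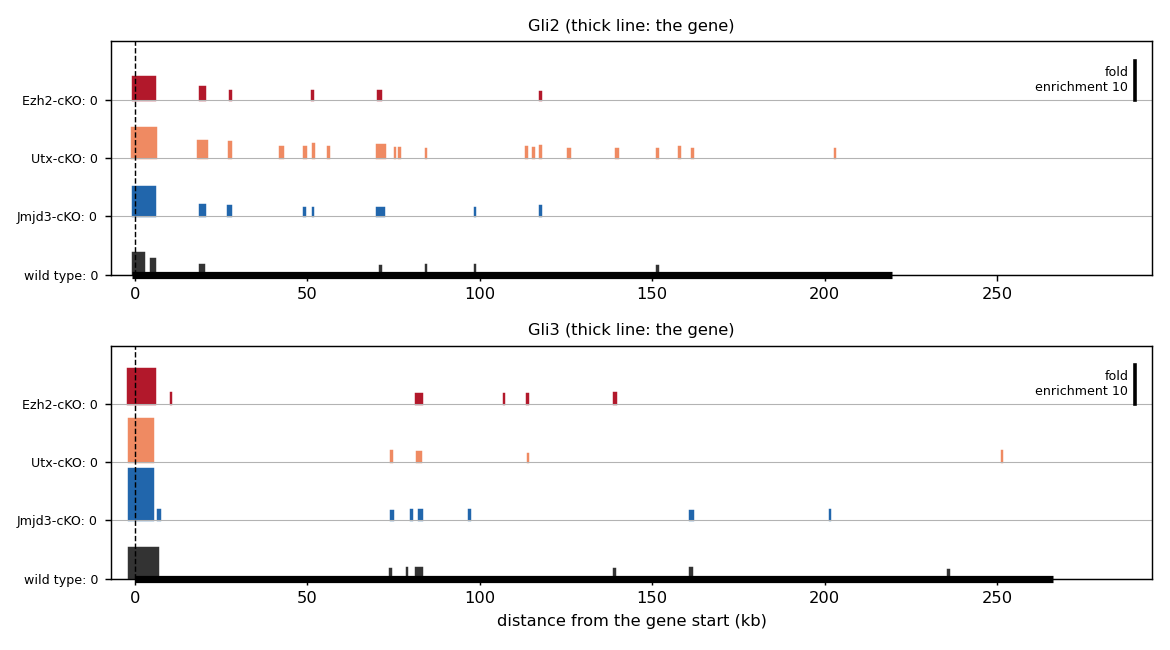
Peaks over the whole of Gli2 and Gli3 are drawn by distance from the gene start in kb, with bar height giving fold enrichment over the own input (scale bar, 10) and bars outlined so that the shortest stay visible. Beyond the start peak all bars are low, and Utx-cKO has 19 of them in Gli2 against 5 in wild type more than 10 kb past the start, and 4 in Gli3 against 6.

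In length under peaks, the roles kept 1 order in all 4 lists, with Gli factors above receptors and receptors above ligands. The median over the 3 Gli factors was 11192 bp in Ezh2-cKO, 10030 in Utx-cKO, 12115 in Jmjd3-cKO and 7844 in wild type. For the 3 receptor genes it was 5975, 7765, 5438 and 4398 bp, and for the 2 ligands 2418, 3118, 1726 and 1404 bp. The median gene with a peak had 2758, 3620, 2468 and 2450 bp in the same order of lists. That reference leaves out genes without a peak, whereas Shh enters the ligand medians with 0 bp in Ezh2-cKO, Jmjd3-cKO and wild type. Dhh alone had 4835, 5908, 3452 and 2807 bp, above the median gene in each list and above Gli1 in all but Jmjd3-cKO. Within each role the spread was wide: among receptors in wild type Hhip had 735 bp and Ptch1 8028 bp. Gene length goes with this order, since Gli2 and Gli3 are 220.3 and 266.3 kb long and the ligands 10.3 and 16.9 kb. As a share of the window this order did not hold, with medians for Gli factors of 4.86%, 10.5%, 6.001% and 5.00%, for receptors of 13.6%, 17.1%, 13.6% and 10.7%, and for ligands of 8.97%, 11.8%, 6.405% and 5.21%.

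**Figure D4:**
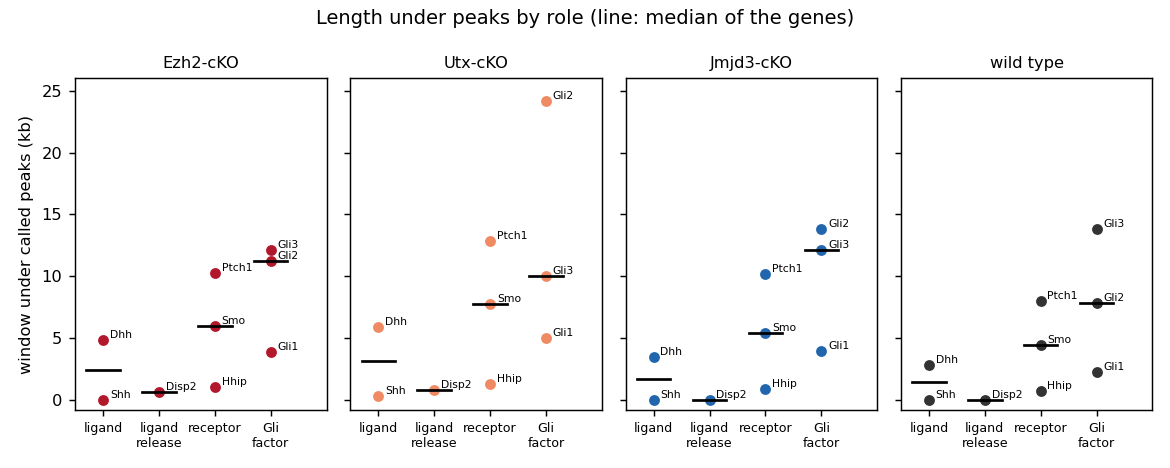
Length of each member's window under called peaks in kb, by role, with 1 panel per list; points are genes and lines are medians. The points of Shh and Disp2 lie at or near 0 in every panel, and Gli2 in Utx-cKO lies highest, at 24196 bp.

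Peaks of 5 kb or longer were found at 3 of the 9 members in each knockout (Ptch1, Gli2 and Gli3) and at 2 in wild type (Ptch1 and Gli3). The background shares were 5.54% for Ezh2-cKO, 11.8% for Utx-cKO and 4.86% for Jmjd3-cKO, and 4.51% in wild type. No ligand had such a peak. By median percentile of fold enrichment the receptors ranked highest, with 92.5 in Ezh2-cKO, 95.5 in Utx-cKO, 79.9 in Jmjd3-cKO and 69.5 in wild type. These medians are the values of Ptch1, and the order did not hold gene by gene. Hhip ranked below all 3 Gli factors in each list. Gli3 ranked above Ptch1 in Jmjd3-cKO (87.6) and in wild type (72.5). The medians of the Gli factors, which are the values of Gli2, followed with 35.4, 42.6, 45.1 and 38.2. Those of the ligands were 11.9, 19.9, 14.2 and 21.7, taking a gene without a peak as 0. The ligand median thus lay below those of the receptors and Gli factors in each list, and above Disp2 (3.47, 11.6, 0 and 0). It rests on Shh, which enters as 0 in 3 of the 4 lists. Dhh alone ranked above Gli1 and Hhip in all 4 lists, and above Gli2 in wild type. In Jmjd3-cKO that rank of Dhh came from the peak within Rhebl1. Without peaks nearer to another gene Dhh stood there at 18.8 and Gli1 at 25.2, with the Arhgap9 peak still counted for Gli1. With peaks over the gene only they stood at 16.5 and 15.7. With a window of 10 kb the ligand median passed that of the Gli factors in each list, because a peak inside Kmt2d, 8.3 to 8.6 kb from Dhh, then counts for Dhh. Its fold enrichment was 10.3 for Ezh2-cKO, 14.4 for Utx-cKO and 13.2 for Jmjd3-cKO, and 9.67 in wild type.

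Set against wild type, most members with a peak in both lists had more sequence under peaks in the knockouts, as did the median gene. The median ratio of knockout to wild type over all genes was 1.11 for Ezh2-cKO, 1.47 for Utx-cKO and 1.02 for Jmjd3-cKO, and the members are read against those. Gli2 had ratios of 1.43, 3.08 and 1.76, reached by 23.1%, 13.0% and 5.15% of genes. For Gli1 they were 1.72, 2.23 and 1.75, reached by 12.7%, 24.5% and 5.26% of genes. Gli3 went the other way with 0.879, 0.726 and 0.877, values that 83.1%, 97.6% and 75.4% of genes equalled or passed. With all called peaks, Gli3 was thus the member with less sequence under peaks in each knockout than in wild type. Smo (1.36, 1.77 and 1.24), Ptch1 (1.28, 1.60 and 1.27), Hhip (1.45, 1.77 and 1.18) and Dhh (1.72, 2.105 and 1.23) lay above the median of each list. The place of Gli3 as the exception depended on the cutoff. At q of 0.001 or less its Ezh2-cKO length, 8890 bp, passed the 8607 bp of wild type. The lengths for Utx-cKO (8342 bp) and Jmjd3-cKO (7020 bp) stayed below. Ptch1, with 7510 bp in wild type at that cutoff, then had less for Ezh2-cKO (7426 bp) and Jmjd3-cKO (7466 bp). For Utx-cKO it had more (7549 bp). When each list kept only its 27013 strongest peaks, Ptch1 had less than the 7761 bp of wild type in Utx-cKO (7549 bp). It had more in Ezh2-cKO (9528 bp) and Jmjd3-cKO (10195 bp).

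**Figure D5:**
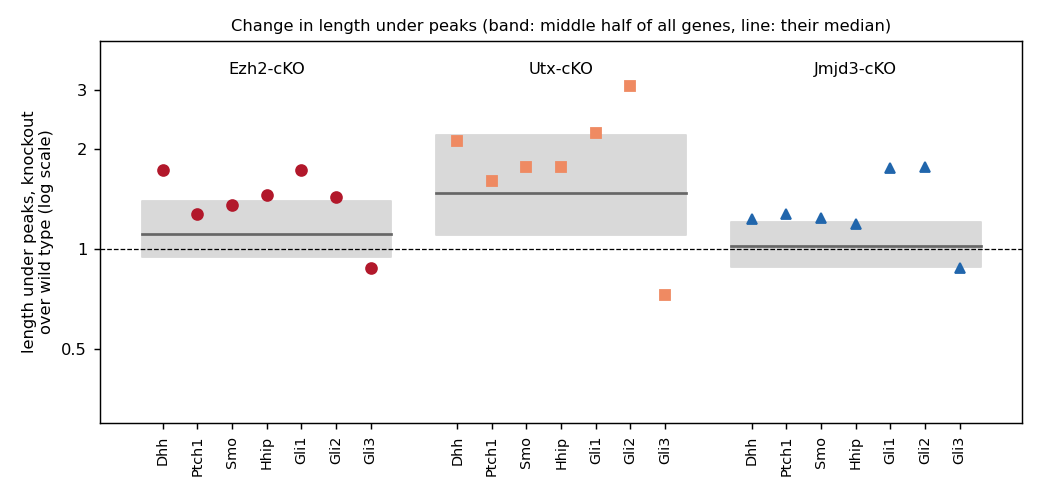
Length under peaks in each knockout divided by that in wild type (log scale) for the 7 members with a peak in every list, with the median and the quartiles of all genes as line and band. Gli3 lies below 1 in each knockout and the other members above 1.

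Part of the members' peaks were shared with wild type. In Ezh2-cKO 16 of 27 peaks touched a wild-type peak (66.5% over the list), in Utx-cKO 19 of 48 (47.8%) and in Jmjd3-cKO 20 of 31 (78.0%). Conversely, of the 27 wild-type peaks 19 were touched in Ezh2-cKO (80.7% over the list), 21 in Utx-cKO (87.3%) and 22 in Jmjd3-cKO (75.8%). Most of the wild-type peaks not touched were inside Gli2 and Gli3, which hold 14 of the 27 wild-type peaks, and none of them was a start peak of Ptch1, Smo, Hhip, Gli2 or Gli3.

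All 44 genes of a wider list of the pathway had a peak in each of the 4 lists. The share of all protein-coding genes was 70.6% in Ezh2-cKO, 73.5% in Utx-cKO, 68.9% in Jmjd3-cKO and 68.7% in wild type. Many of the 44 are longer than 20 kb, and for genes of 20 kb or more the shares were 84.7%, 87.2%, 82.8% and 83.0%. The 44 genes comprise 5 for ligand processing and release (Hhat, Disp1 and Scube1 to Scube3), 5 receptors and co-receptors such as Boc and Cdon, 14 transducers such as Sufu and Kif7, 6 genes of the primary cilium and 14 targets such as Pthlh. Their median rank percentile was 48.9 in Ezh2-cKO, 51.2 in Utx-cKO, 52.5 in Jmjd3-cKO and 53.1 in wild type. Target genes ranked lower, at 28.4, 31.6, 27.3 and 28.9, and transducers at 62.2, 62.3, 74.1 and 61.3. Ihh, the growth plate ligand, had a peak in each list at rank percentiles of 4.73 in Ezh2-cKO, 12.1 in Utx-cKO, 14.96 in Jmjd3-cKO and 11.7 in wild type.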

How the data were processed

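Chondrocytes of 4 genotypes were profiled by ChIP with an antibody that the labels give as anti-H3K27me3, each with an input. The submitters' processing notes list the tools deepTools 2.4.1, HOMER 4.10, FastQC 0.11.5, MACS2, ChIPseeker and Bowtie2. No genome build is stated in the sources used here. MACS 2.1.2 was run by the authors in its broad, paired-end mode, 1 ChIP library against its own input and unpooled, per the file headers. The cutoff was q of 0.05, 1 fragment was kept per duplicate set, and the larger library was scaled down to the smaller. The deposited lists give pileup as a coverage signal (not used), −log10 p (not used) and −log10 q, fold enrichment as a ratio over local input, and length. Each list is thus scaled to its own library pair, and fold enrichment was ranked within lists only.

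Gene positions are those of RefSeq in GRCm38.p6. That build was checked by moving promoter windows: wild-type peaks touched 57.5% of 21263 windows in place and 4.14% and 4.02% after moves of 20 kb either way. The table has no strand, so starts came from the promoter sequences. Rank percentile is the share of genes with a peak whose highest fold enrichment is no greater. A median of 2 genes is their mean. Gene marking was tested on simulated peaks. The members and gene lists were chosen with earlier results of these data known. An item of the wider pathway list is not reported here. The 20 kb length classes, the spanning peaks and the 10 kb limit inside genes were chosen after values were seen. All members and every peak of theirs were eligible to be named, with neighbouring genes near such a peak. Python 3.11.15, numpy 2.4.6, pandas 2.3.3 and matplotlib 3.10.9 were used. Alternatives are given in the closing section.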

Additional observations from a re-analysis of the deposited data

How the results depend on the processing

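Of 115 recomputed values 103 stayed within 1.5 times the reported one and 12 did not. They were counts of members with a peak, gained or lost, of lists that kept an order of roles, and of shared peaks. Many of these counts are small or 0 and had little room to move. Lengths, ratios and rank shifts of single genes were not among them. The Ezh2-cKO gain of 1 member was 0 with peaks over the gene only, with a window of 2 kb, at q of 0.001 or less, at 4-fold enrichment or more, and with peaks nearer to another gene left out. The Utx-cKO gain of 2 was 1 with peaks over the gene only (Shh), at q of 0.001 or less and with the same number of strongest peaks (Disp2 in both), and at 4-fold enrichment or more (Hhip). At 4-fold enrichment or more, a limit that is not equal between lists, 5 members remained with a peak in Ezh2-cKO (59.1% of all genes, and 56.6% in wild type), and 1 (Gli1) was lost against wild type where 0 had been. With a window of 10 kb, receptors and Gli factors both ranked above the ligands in 0 of the 4 lists, as described with the Kmt2d peak. The order of roles by length under peaks held in all 4 lists under each alternative except the window of 10 kb, where it held in 3. No paired analysis was possible because each genotype had 1 ChIP library and the labels carry no replicate number.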

Other observations

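The peak nearest to Shh lay 68.9 kb from the gene in Ezh2-cKO, with fold enrichment 2.45. In Jmjd3-cKO it lay 136.7 kb away and in wild type 137.7 kb away, and these peaks, with fold enrichments of 19.5 and 12.4, overlapped each other. In Utx-cKO the nearest peak was the one inside the gene. At Disp2 the nearest peak was 16.8 kb away in Jmjd3-cKO and 16.9 kb away in wild type.

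Genes outside the lists whose 4 rank percentiles lay nearest to the median profile of the ligands were Psmd10 and Atg4a, with equal values, at a Euclidean distance of 2.75 percentile points, and Ltb at 2.96. For the Gli factors they were Alg8 at 3.67, Gm1673 at 4.15 and Ccdc9 at 4.44. The likeness is over 4 libraries, and 27 genes lay within 5 points of the ligand profile and 6 within 5 points of the Gli profile. The ligand profile averages Dhh with Shh, which enters as 0 where it has no peak, so it describes neither gene. The Gli profile is that of Gli2 in each list, with Gli1 below it and Gli3 above it. The genes named are near these medians and not near each ligand or Gli factor.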
